A study of Mus musculus with 18 samples.

Results

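Collagen genes are the 40 mouse genes, of 27595 gene names on the array, whose name is Col, a number, the letter a and a number. They were read by 81 of 41174 probes on one-colour arrays, and 38 of them passed the filter on dim signals, among 19217 genes that passed. The samples came from the interscapular brown, inguinal and epididymal fat of C57BL/6 mice labelled male and young adult. Minced fat was digested with collagenase type II in every group, the floating adipocytes were taken off, and the pelleted stromal-vascular fraction (SVF) went through lysis of its erythrocytes. The 6 groups, adipocytes and SVF of each depot, hold 3 biological replicates each, and no group was treated or carries a genetic change by its labels. The labels do not say which samples came from the same mice. The design compares the fractions within a depot and the depots within a fraction.

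Collagens are trimers of chains that wind into a triple helix, in which glycine recurs at a fixed spacing. Fibrillar collagens form the banded fibrils of connective tissue, and type V collagen starts and limits those fibrils. Fibril-associated collagens sit on the fibril surface, type VI collagen forms beaded filaments, and type IV collagen is the network of basement membranes, the sheets that wrap each fat cell and vessel. In adipose tissue the interstitial collagens are known mainly as products of progenitors and fibroblasts, while mature adipocytes keep a basement membrane of their own.

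A level here is the log2 processed signal of a gene's brightest probe minus the log2 75th percentile of its array, so 1 unit is a doubling and 0 is the 75th percentile. Levels were compared between groups for the same gene only, since probes differ in their response. A gene was called where the adjusted p of limma's moderated test (Benjamini-Hochberg over all 19217 genes) was under 0.05, and differences are given as log2 values with their standard error (3 arrays a group). A spot counts as measured where the scanner software marks it well above background. Where no array of a group was, the difference has only a bound, given as "at least N-fold" against the lowest measured signal of those arrays.

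Spots well above background made up 49.6 to 72.3 percent of an array, except 87.9 percent in epididymal adipocyte replicate 1. The lowest measured level lay between -4.34 and -3.50 on the brown adipocyte arrays and between -6.02 and -4.15 on the others. Adipocyte markers summed to 1268 to 1984 times the 75th percentile in brown, 790 to 2018 in inguinal and 967 to 1292 in epididymal adipocytes, above all SVF arrays (18.8 to 632.5). Progenitor and fibroblast markers summed to 381 to 421 in brown, 257 to 751 in inguinal and 398 to 596 in epididymal SVF, against 58.2 to 78.7, 94.7 to 342 and 193 to 283 in the adipocytes. The library labelled inguinal SVF replicate 1 went against its label of male: its Xist level was 4.98, where none of the other 17 arrays exceeded -4.57, and its Ddx3y level was -6.50, where all 17 lay at 0.18 or above. Its mesothelial markers summed to 139.3, against 0.73 and 0.96 on the other inguinal SVF arrays. Inguinal calls of genes that rest on this library are given with and without it, and calls of single probes only with it. All SVF and brown adipocyte arrays were read with one version of the scanner software, and the inguinal and epididymal adipocyte arrays with an older one, on other slides and scan days. For every comparison that sets those 6 arrays against others, software, slide, scan day and group cannot be told apart. In bulk fractions fewer cells of a type and less RNA per cell cannot be told apart either.

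**Figure D1:**
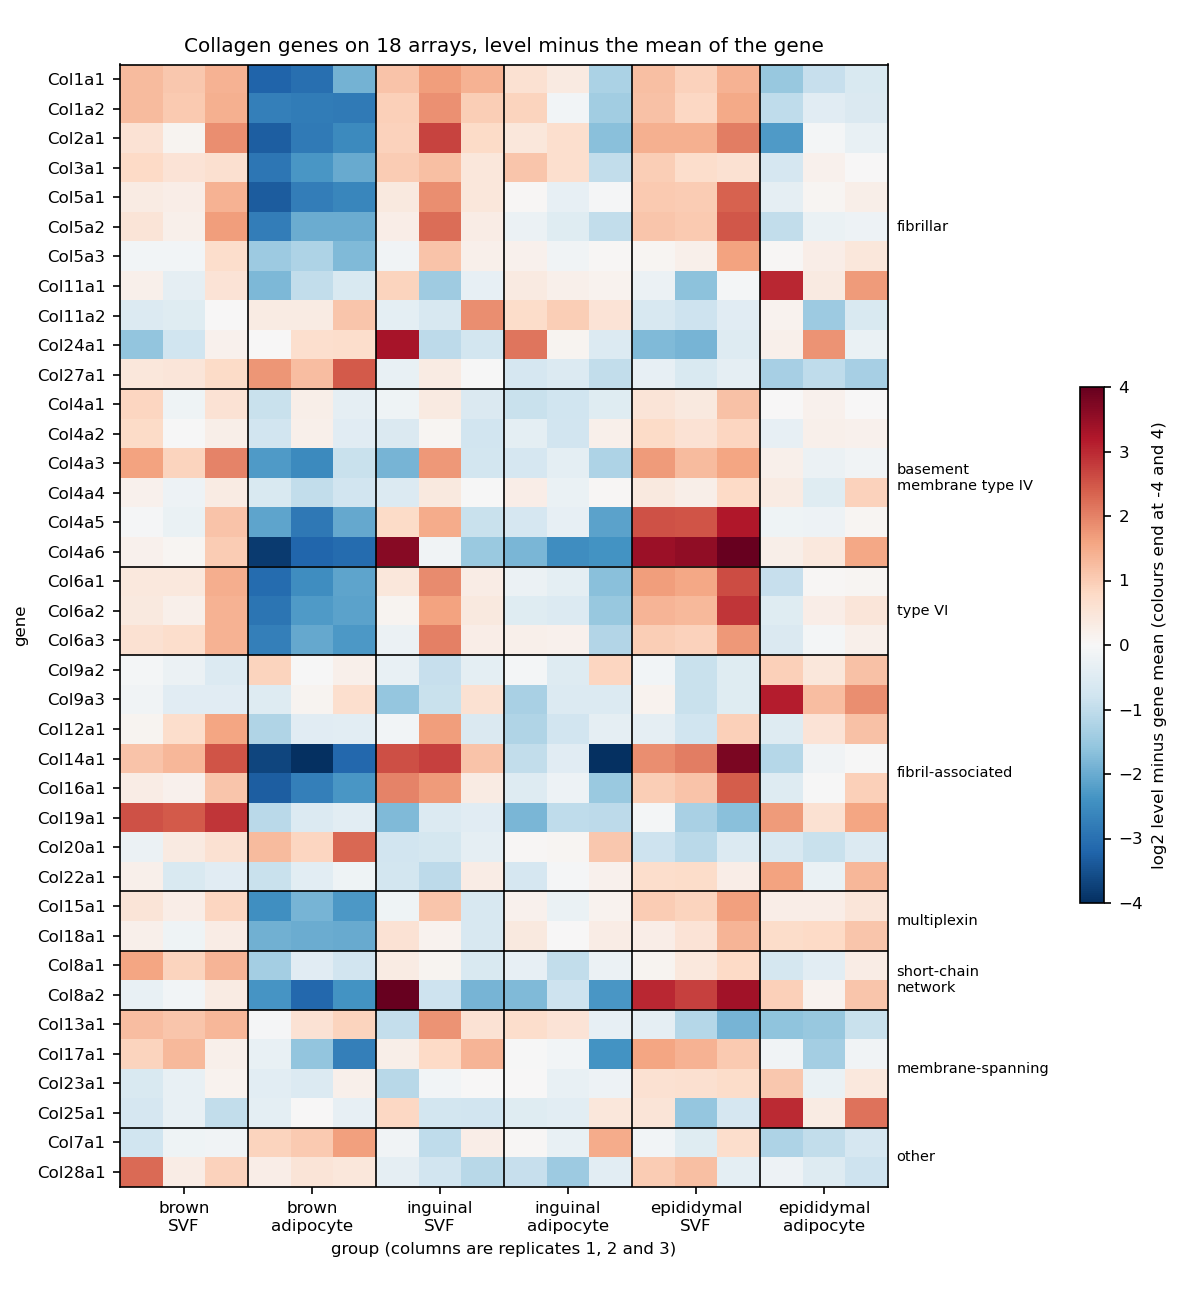
Log2 level of 38 collagen genes (rows, by class) on 18 arrays (columns, 3 replicates a group), minus the mean of the gene over all arrays; red is above and blue below that mean, and colours end at -4 and 4. Most fibrillar, type VI and multiplexin rows are darkest blue on the brown adipocyte arrays, where Col27a1, Col20a1 and Col7a1 are red.

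In brown fat, 20 of 38 collagen genes were lower in adipocytes than in SVF and 3 were higher (background: 8.35 percent of all 19217 genes were lower and 12.7 percent higher). Their median difference was -2.11, against 0.15 over all genes. With the members that brown adipocytes left below background set at their bound, the median was -1.36. In epididymal fat 12 were lower and 5 higher (background 6.91 and 18.1 percent), with a median of -0.82 against 0.07; quantile normalization gave 16 and 4, and the deposited matrix 19 and 4. In inguinal fat 6 were lower (background 4.81 percent), and 32 did not pass; 14 had an unadjusted p under 0.05, and the median was -0.47 against 0.01 (-0.66 against 0.03 without the library labelled inguinal SVF replicate 1). Brown adipocytes and brown SVF shared slides and scan days: all 23 called genes kept their sign on each of the days and all 23 passed with the slide as a block.

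The calls rested on the replicates to different degrees. In brown fat, 20 of 23 calls held whichever array was left out, and Col17a1, Col20a1 and Col7a1 did not. In epididymal fat, 6 of 17 held: Col1a1, Col1a2, Col4a5, Col6a1, Col9a3 and Col19a1. The epididymal count fell to 11 without SVF replicate 2, 10 without SVF replicate 3 and 6 without adipocyte replicate 1. In inguinal fat only Col14a1 held. The inguinal count was 3 without the library labelled SVF replicate 1, 2 without SVF replicate 2 and 1 without adipocyte replicate 3, the inguinal adipocyte array with the lowest progenitor and fibroblast sum (94.7 against 226 and 342). The part of the progenitor markers in these differences was not tested.

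**Figure D2:**
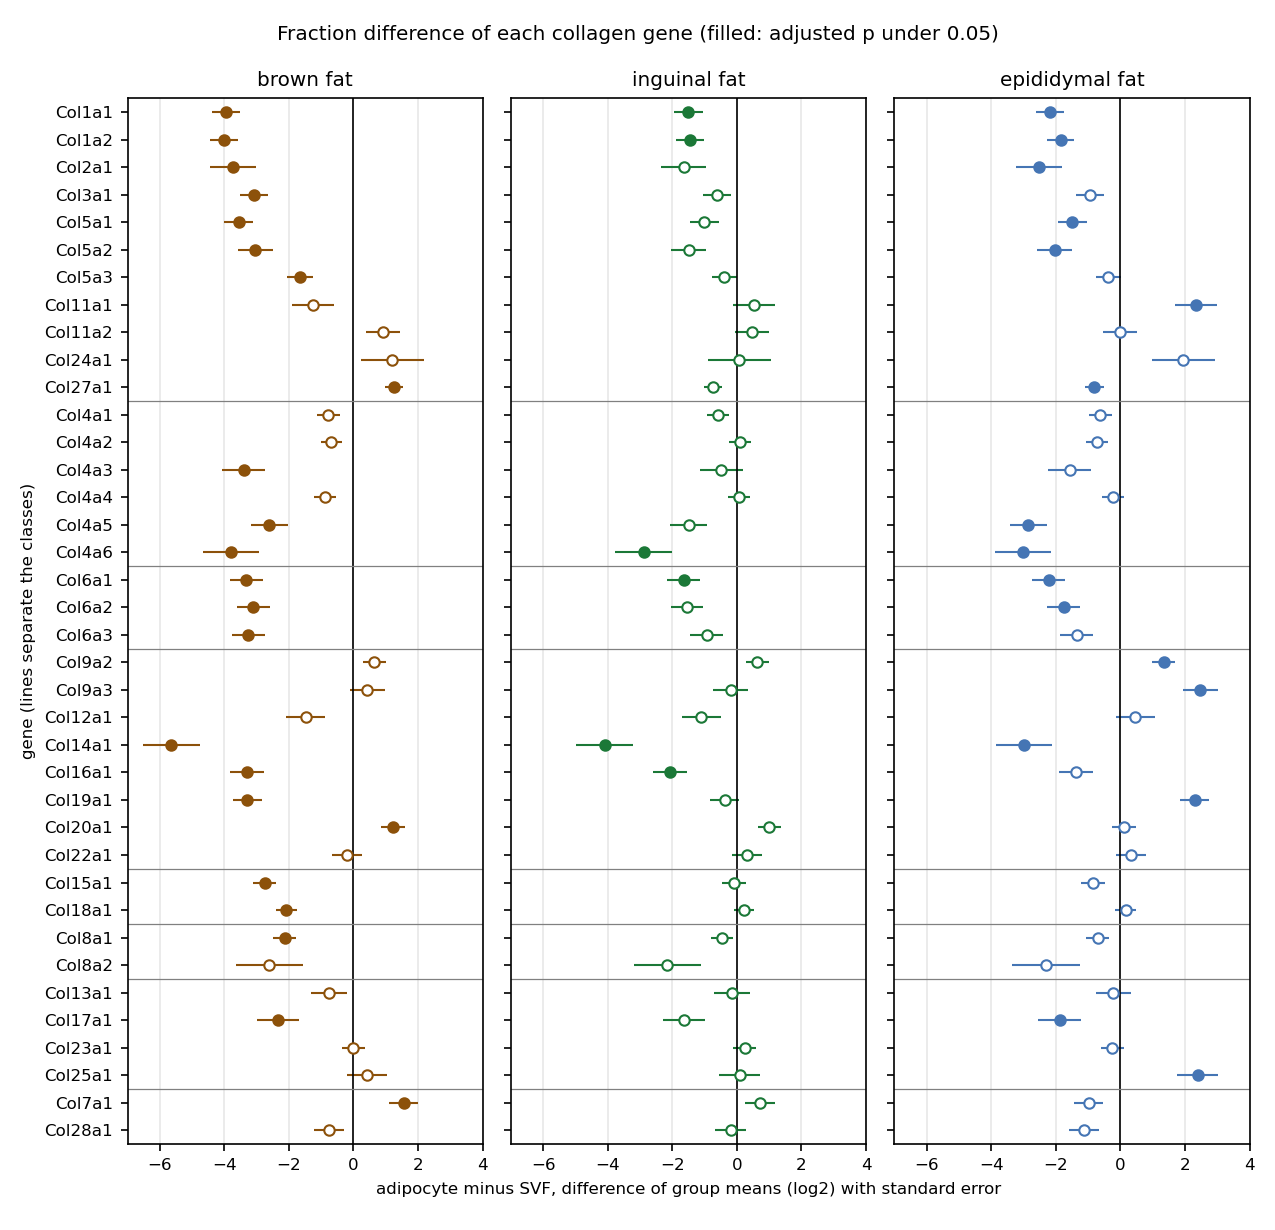
Adipocyte minus SVF difference (x axis, log2, with standard error) of each of 38 collagen genes (y axis, lines separate classes) in brown, inguinal and epididymal fat; filled points have an adjusted p under 0.05. The 23 filled points in brown fat reach to -5.64 for Col14a1, and 6 points are filled in inguinal fat.

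Among the 11 fibrillar genes, 7 were lower and 1 was higher in brown adipocytes than in brown SVF (8.35 and 12.7 percent of all genes). In inguinal adipocytes 2 were lower (4.81 percent of all genes). In epididymal adipocytes 6 were lower and 1 higher (6.91 and 18.1 percent of all genes). Both chains of type I collagen, the main fibril of connective tissue, were lower in adipocytes in every depot. Col1a1 stood at 6.78, 6.60 and 6.88 in brown SVF against 2.30, 2.50 and 3.60 in brown adipocytes, 6.66, 7.18 and 6.89 against 6.11, 5.86 and 4.25 in inguinal fat, and 6.71, 6.43 and 6.89 against 3.98, 4.59 and 4.90 in epididymal fat. Its brown adipocyte arrays were the lowest of all 18 and did not overlap any other group. The difference was -3.95 ± 0.44 (adjusted p = 9.26e-05) in brown, -1.50 ± 0.44 (adjusted p = 0.0346) in inguinal fat and -2.19 ± 0.44 (adjusted p = 0.00351) in epididymal fat. Without the library labelled inguinal SVF replicate 1 the inguinal value was -1.63 (adjusted p = 0.0512), so Col1a1 no longer passed there.

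Col1a2 stood at 7.40, 7.19 and 7.57 in brown SVF against 3.43, 3.36 and 3.33 in brown adipocytes, 7.10, 7.98 and 7.14 against 7.04, 6.05 and 4.76 in inguinal fat, and 7.32, 6.99 and 7.66 against 5.14, 5.69 and 5.57 in epididymal fat. Col1a2, the partner chain of Col1a1, thus had its lowest levels on the 3 brown adipocyte arrays, which lay within 0.10 of each other, and inguinal adipocytes spread most (SD 1.14). The difference was -4.02 ± 0.43 (adjusted p = 6.56e-05) in brown, -1.45 ± 0.43 (adjusted p = 0.0364) in inguinal fat and -1.85 ± 0.43 (adjusted p = 0.00709) in epididymal fat. Col1a2 kept its call without the library labelled inguinal SVF replicate 1 (-1.61, adjusted p = 0.0487). Col3a1 stood at 6.83, 6.58 and 6.69 in brown SVF against 3.14, 3.71 and 4.03 in brown adipocytes, 7.05, 7.23 and 6.50 against 7.14, 6.73 and 5.07 in inguinal fat, and 7.04, 6.76 and 6.64 against 5.37, 6.21 and 6.06 in epididymal fat. Col3a1, whose homotrimer joins type I fibrils in soft tissue, was lower in adipocytes in brown fat (-3.07 ± 0.43, adjusted p = 0.000309), while the inguinal arrays overlapped (-0.61 ± 0.43, adjusted p = 0.359) and the epididymal difference did not pass (-0.93 ± 0.43, adjusted p = 0.127).

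A promoter is shown for Col1a2 because this gene had the lowest adjusted p of the members in brown fat. The window holds 250 bases before and 50 after the RefSeq start (chr6:4505368-4505667 (+ strand), GRCm38.p6), and capitals mark CCAAT on either strand (CCAAT or ATTGG), the core of a motif known from the promoters of type I collagen genes.
Col1a2: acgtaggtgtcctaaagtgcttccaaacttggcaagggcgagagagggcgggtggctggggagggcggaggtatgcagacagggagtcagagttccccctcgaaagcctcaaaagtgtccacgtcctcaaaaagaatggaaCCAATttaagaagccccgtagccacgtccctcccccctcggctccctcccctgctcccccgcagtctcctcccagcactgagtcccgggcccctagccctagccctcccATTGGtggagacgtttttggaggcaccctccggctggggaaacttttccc
It holds 2 matches. Of 32851 promoter windows of this length, 37.4 percent hold a match, and 12 of the 35 windows of collagen genes (34.3 percent; 32 genes matched by symbol) do. A match is a run of letters and was not tested as a binding site. No window for Col1a1 was used here.

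The 3 chains of type V collagen followed in brown fat. Col5a1 stood at 3.42, 3.36 and 4.50 in brown SVF against -0.22, 0.34 and 0.50 in brown adipocytes, 3.48, 4.96 and 3.55 against 3.14, 2.77 and 3.05 in inguinal fat, and 4.17, 4.13 and 5.46 against 2.76, 3.18 and 3.33 in epididymal fat. Col5a1 was lower by a difference of -3.55 ± 0.45 (adjusted p = 0.000166) in brown and -1.49 ± 0.45 (adjusted p = 0.0246) in epididymal adipocytes, and its inguinal difference did not pass (-1.01 ± 0.45, adjusted p = 0.143). Col5a2 had -3.05 ± 0.54 (adjusted p = 0.00124) in brown, -1.50 ± 0.54 (adjusted p = 0.0781) in inguinal fat and -2.03 ± 0.54 (adjusted p = 0.0145) in epididymal fat. Col5a3 was lower in brown adipocytes (-1.66 ± 0.40, adjusted p = 0.00804) and had -0.39 and -0.37 in the other depots, and the difference between depots did not pass in a test of its own (adjusted p = 0.337 and 0.215).

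The glycine repeat of the helix can be read in the array itself. Of the 41174 probes, 3 have at least 6 GGN codons, the codons of glycine, spaced 9 bases apart, and all 3 are collagen probes, second probes of Col5a3, Col5a1 and Col11a2. They are shown because they spell the repeat that defines the family, 60 bases each and 5′ to 3′, with the spaced GGN codons in capitals. The positions on the mm8 build in the files are chr9:20536024-20536753 (- strand), chr2:27808732-27811155 (+ strand) and chr17:33662796-33662962 (+ strand), spans of 730, 2424 and 167 bases, longer than the probes, so each joins sequence from more than 1 exon.
Col5a3 A_52_P503796: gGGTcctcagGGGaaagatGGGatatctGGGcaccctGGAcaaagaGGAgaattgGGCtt
Col5a1 A_52_P237371: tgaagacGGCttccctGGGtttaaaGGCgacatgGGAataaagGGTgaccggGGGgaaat
Col11a2 A_52_P563285: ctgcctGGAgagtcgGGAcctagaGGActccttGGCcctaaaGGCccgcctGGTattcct
Fitted as probes, with p adjusted over all 28595 probes, the Col5a1 probe was lower in brown adipocytes (-2.19 ± 0.52, adjusted p = 0.00782), as the brightest Col5a1 probe was. The Col5a3 probe did not pass in brown fat, with -1.26 ± 0.51 (adjusted p = 0.106). The Col11a2 probe was higher in epididymal adipocytes (1.51 ± 0.52, adjusted p = 0.0491), where the brightest Col11a2 probe showed -0.01.

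In brown fat 1 fibrillar gene had the opposite direction. Col27a1, a short fibrillar collagen known from cartilage, was higher in brown adipocytes and lower in epididymal adipocytes. Col27a1 stood at -1.70, -1.68 and -1.41 in brown SVF against -0.41, -0.92 and 0.30 in brown adipocytes, -2.46, -1.82 and -2.19 against -2.82, -2.70 and -3.15 in inguinal fat, and -2.48, -2.77 and -2.54 against -3.51, -3.19 and -3.50 in epididymal fat. Every brown adipocyte array lay above every other array of the study. The difference was 1.25 ± 0.28 (adjusted p = 0.00532) in brown, -0.73 ± 0.28 (adjusted p = 0.095) in inguinal fat and -0.80 ± 0.28 (adjusted p = 0.0488) in epididymal fat. All 3 probes of Col27a1 were called higher in brown adipocytes (1.25 to 1.49), and in epididymal fat the other probes gave -0.56 and 0.27 with no call. Col11a1, a cartilage fibril chain, was higher in epididymal adipocytes (2.35 ± 0.65, adjusted p = 0.0168); its arrays there stood at -0.79, -3.44 and -2.10, a wide spread, and none of the brown adipocyte arrays measured it. Col11a2 and Col24a1 were not called between fractions. Col2a1, the cartilage fibril chain, was read by a pair of probes. Col2a1 stood at 1.82, 1.36 and 3.12 in brown SVF against -2.04, -1.59 and -1.29 in brown adipocytes, 2.17, 3.94 and 2.01 against 1.70, 1.90 and -0.44 in inguinal fat, and 2.68, 2.68 and 3.29 against -1.01, 1.17 and 0.95 in epididymal fat. It was lower in brown (-3.74 ± 0.71, adjusted p = 0.00189) and epididymal adipocytes (-2.52 ± 0.71, adjusted p = 0.0186) by this probe, and the other went the opposite way.

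**Figure D3:**
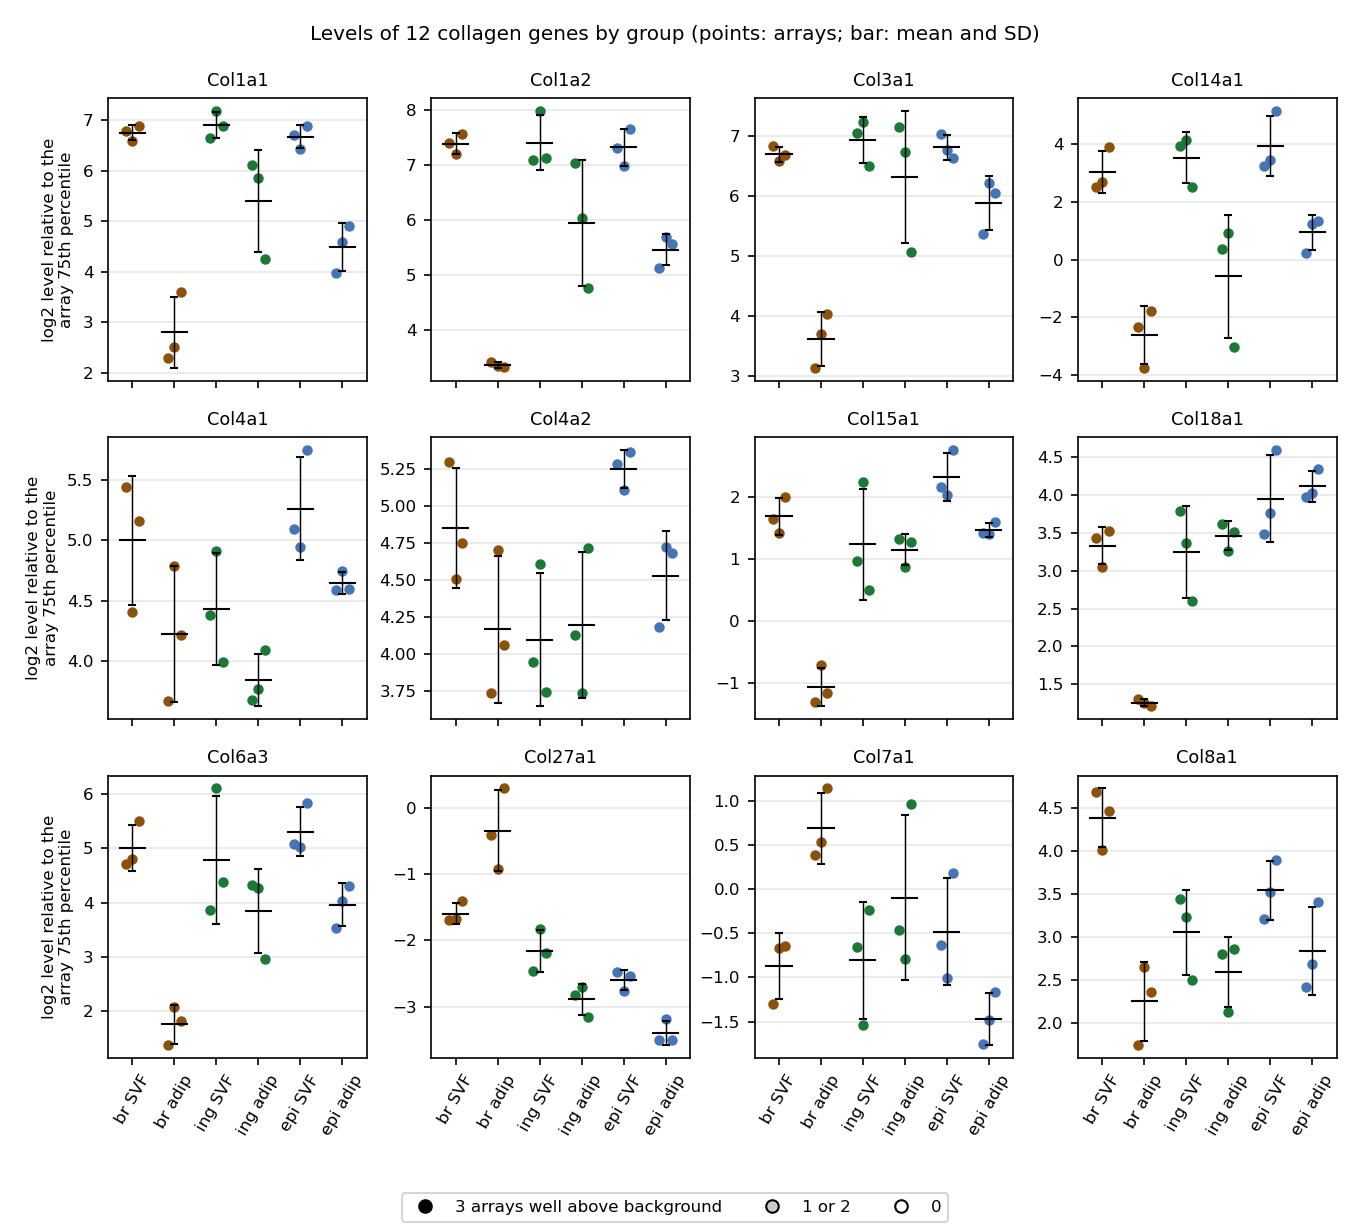
Log2 level relative to the array's 75th percentile (y axes, a separate scale in each panel) of 12 collagen genes in the 6 groups (x axis); points are arrays, the bar the mean with its SD, and fill shows how many arrays of the group were well above background. Brown adipocytes (br adip) are lowest for Col1a1, Col1a2, Col3a1, Col15a1, Col18a1 and Col6a3 and highest for Col27a1, while brown adipocytes overlap other groups for Col4a1 and Col4a2.

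All 3 type VI genes on the array by this naming, whose chains assemble into the beaded filaments common in fat, were lower in brown adipocytes. Over all genes, 8.35 percent were lower there, 4.81 percent in inguinal and 6.91 percent in epididymal adipocytes. Col6a1 stood at 2.96, 2.97 and 4.0 in brown SVF against -0.53, 0.05 and 0.46 in brown adipocytes, 3.02, 4.43 and 2.85 against 2.30, 2.17 and 0.89 in inguinal fat, and 4.23, 4.08 and 5.17 against 1.61, 2.58 and 2.63 in epididymal fat. Col6a1 was called in every depot, with -3.32 ± 0.51 (adjusted p = 0.00049) in brown, -1.65 ± 0.51 (adjusted p = 0.0439) in inguinal fat and -2.22 ± 0.51 (adjusted p = 0.00677) in epididymal fat. Its inguinal value was -1.86 (adjusted p = 0.0531) without the library labelled inguinal SVF replicate 1. Col6a2 stood at 1.54, 1.36 and 2.54 in brown SVF against -1.76, -1.12 and -0.99 in brown adipocytes, 1.25, 2.76 and 1.53 against 0.66, 0.60 and -0.36 in inguinal fat, and 2.51, 2.45 and 4.02 against 0.67, 1.43 and 1.63 in epididymal fat. Its fractions did not overlap in any depot, and Col6a2 was called in brown (-3.10 ± 0.51, adjusted p = 0.000695) and epididymal fat (-1.75 ± 0.51, adjusted p = 0.021). Col6a3 stood at 4.71, 4.81 and 5.50 in brown SVF against 1.36, 2.06 and 1.80 in brown adipocytes, 3.87, 6.11 and 4.38 against 4.32, 4.27 and 2.95 in inguinal fat, and 5.08, 5.02 and 5.83 against 3.53, 4.03 and 4.31 in epididymal fat. Col6a3, whose end fragment is known as endotrophin, was called in brown fat (-3.26 ± 0.51, adjusted p = 0.000543) and not in inguinal (-0.94 ± 0.51, adjusted p = 0.233) or epididymal fat (-1.36 ± 0.51, adjusted p = 0.0651).

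The fibril-associated genes went in both directions. Of 8 tested, 3 were lower and 1 higher in brown adipocytes (8.35 and 12.7 percent of all genes). In inguinal adipocytes 2 were lower (4.81 percent of all genes). In epididymal adipocytes 1 was lower and 3 higher (6.91 and 18.1 percent of all genes). The 1 higher in brown adipocytes is near the share of all genes. Col14a1, which binds the surface of fibrils and is a known gene of progenitors and fibroblasts, had the largest difference of all members in brown and inguinal fat. Col14a1 stood at 2.52, 2.69 and 3.88 in brown SVF against -2.31, -3.74 and -1.77 in brown adipocytes, 3.94, 4.12 and 2.51 against 0.38, 0.92 and -3.01 in inguinal fat, and 3.22, 3.43 and 5.13 against 0.24, 1.23 and 1.34 in epididymal fat. SVF lay above adipocytes on every array of every depot. The difference was -5.64 ± 0.88 (adjusted p = 0.000515) in brown, -4.09 ± 0.88 (adjusted p = 0.00776) in inguinal fat and -2.99 ± 0.88 (adjusted p = 0.0224) in epididymal fat. In inguinal fat it was -3.89 (adjusted p = 0.0261) without the library labelled SVF replicate 1. Inguinal adipocyte replicate 3 stood lowest of its group here, as it did in the progenitor and fibroblast sum.

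Col16a1 stood at 1.91, 1.79 and 2.73 in brown SVF against -1.66, -1.09 and -0.71 in brown adipocytes, 3.60, 3.33 and 1.95 against 1.12, 1.41 and 0.13 in inguinal fat, and 2.61, 2.77 and 4.06 against 1.12, 1.61 and 2.56 in epididymal fat. Col16a1, another fibril-associated chain, was lower in brown (-3.30 ± 0.53, adjusted p = 0.000644) and inguinal adipocytes (-2.08 ± 0.53, adjusted p = 0.0194), and in epididymal fat it had -1.38 ± 0.53 (adjusted p = 0.0708). Without the library labelled inguinal SVF replicate 1 the inguinal value was -1.75 (adjusted p = 0.0677). Col9a3 stood at -4.42, -4.74 and -4.75 in brown SVF against -4.81, -4.17 and -3.63 in brown adipocytes, -5.83, -5.17 and -3.66 against -5.57, -4.83 and -4.84 in inguinal fat, and -4.14, -5.16 and -4.77 against -1.16, -3.06 and -2.43 in epididymal fat. Col9a3 and Col9a2, chains of the type IX collagen of cartilage, were both higher in epididymal adipocytes, by 2.48 ± 0.54 (adjusted p = 0.00529) and 1.35 ± 0.36 (adjusted p = 0.0142). Col9a2 stood at -3.44, -3.58 and -3.91 in brown SVF against -2.47, -3.38 and -3.15 in brown adipocytes, -3.67, -4.28 and -3.76 against -3.45, -3.88 and -2.50 in inguinal fat, and -3.46, -4.25 and -3.84 against -2.41, -2.90 and -2.20 in epididymal fat. The brown and inguinal fractions did not differ by the test for either gene. Col20a1 was higher in brown adipocytes (1.23 ± 0.37, adjusted p = 0.0263), and this call was lost without brown adipocyte replicate 3 (adjusted p = 0.151). Col12a1 and Col22a1 were not called between fractions by their brightest probes. By single probes, 1 of the 2 of Col12a1 was called lower in inguinal adipocytes (-2.04 and -1.11).

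Type IV collagen was uneven. Of its 6 genes, 3 were lower in brown adipocytes, 1 in inguinal and 2 in epididymal adipocytes (8.35, 4.81 and 6.91 percent of all genes). The major chains Col4a1 and Col4a2, found in nearly all basement membranes, were called in no depot. Col4a1 stood at 5.44, 4.41 and 5.16 in brown SVF against 3.67, 4.79 and 4.22 in brown adipocytes, 4.38, 4.92 and 3.99 against 3.68, 3.77 and 4.09 in inguinal fat, and 5.09, 4.94 and 5.75 against 4.59, 4.75 and 4.60 in epididymal fat. Col4a2 stood at 5.29, 4.50 and 4.75 in brown SVF against 3.73, 4.70 and 4.06 in brown adipocytes, 3.94, 4.60 and 3.74 against 4.13, 3.74 and 4.71 in inguinal fat, and 5.28, 5.11 and 5.36 against 4.18, 4.72 and 4.68 in epididymal fat. The fractions overlapped in brown and inguinal fat for both genes and lay apart in epididymal fat. The differences of Col4a1 were -0.78 ± 0.34 (adjusted p = 0.132) in brown, -0.58 ± 0.34 (adjusted p = 0.27) in inguinal fat and -0.62 ± 0.34 (adjusted p = 0.205) in epididymal fat, and those of Col4a2 were -0.68 ± 0.33 (adjusted p = 0.172), 0.10 ± 0.33 (adjusted p = 0.874) and -0.72 ± 0.33 (adjusted p = 0.126). With quantile normalization or the deposited matrix both were called lower in brown adipocytes and Col4a2 also in epididymal adipocytes, so the scaling decides these calls. The sign of Col4a2 in inguinal fat also turned with the scaling.

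Col4a1 and Col4a2 start head to head. Their promoter windows are shown because the genes share this stretch of chromosome 8 and had differences of like size in brown fat. The windows are chr8:11312777-11313076 (- strand) and chr8:11312555-11312854 (+ strand) in GRCm38.p6 and overlap by 78 bases; capitals mark CCAAT or ATTGG.
Col4a1: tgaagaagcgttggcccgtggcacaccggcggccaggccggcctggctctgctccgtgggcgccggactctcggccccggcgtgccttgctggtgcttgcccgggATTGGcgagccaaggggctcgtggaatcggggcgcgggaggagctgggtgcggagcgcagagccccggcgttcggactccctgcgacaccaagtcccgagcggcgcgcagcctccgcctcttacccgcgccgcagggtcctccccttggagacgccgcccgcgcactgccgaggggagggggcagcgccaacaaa
Col4a2: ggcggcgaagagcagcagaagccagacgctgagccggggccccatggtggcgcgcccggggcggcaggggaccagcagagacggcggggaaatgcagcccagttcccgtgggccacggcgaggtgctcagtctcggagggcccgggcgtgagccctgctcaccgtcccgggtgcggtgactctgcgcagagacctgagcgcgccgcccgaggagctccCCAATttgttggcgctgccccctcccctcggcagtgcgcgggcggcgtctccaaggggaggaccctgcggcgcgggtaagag
Each holds 1 match.

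Of the minor type IV chains, Col4a3, Col4a5 and Col4a6 were called lower in brown adipocytes, where none of the 3 arrays measured them by their brightest probe. Col4a3 stood at -1.83, -2.54 and -1.46 in brown SVF against -5.69, -5.97 and -4.34 in brown adipocytes, -5.30, -1.72 and -4.16 against -4.11, -3.84 and -4.67 in inguinal fat, and -1.73, -2.16 and -1.87 against -3.24, -3.67 and -3.58 in epididymal fat. Col4a3, a chain of the kidney's filtering membrane, was at least 4.3-fold lower in brown adipocytes (adjusted p = 0.00234) and had -0.48 ± 0.67 (adjusted p = 0.663) in inguinal fat and -1.58 ± 0.67 (adjusted p = 0.0961) in epididymal fat. Col4a5 stood at -3.67, -3.88 and -2.49 in brown SVF against -5.71, -6.48 and -5.66 in brown adipocytes, -2.86, -2.14 and -4.50 against -4.29, -3.93 and -5.77 in inguinal fat, and -1.07, -1.10 and -0.42 against -3.78, -3.83 and -3.55 in epididymal fat. Col4a5 was at least 1.63-fold lower in brown adipocytes (adjusted p = 0.00445), lower in epididymal adipocytes (-2.85 ± 0.57, adjusted p = 0.00344) and not called in inguinal fat (-1.50 ± 0.57, adjusted p = 0.0914), where 2 of 3 adipocyte arrays measured it. With unmeasured signals raised to the floor of their array the brown difference of Col4a5 was -0.70 (adjusted p = 0.392) and did not pass, while Col4a3 (-2.11, adjusted p = 0.00914) and Col4a6 (-3.03, adjusted p = 0.0188) did. Col4a6 stood at -1.26, -1.36 and -0.44 in brown SVF against -5.27, -4.62 and -4.53 in brown adipocytes, 2.19, -1.60 and -2.92 against -3.26, -3.93 and -3.83 in inguinal fat, and 1.98, 2.12 and 2.83 against -1.20, -1.01 and 0.10 in epididymal fat. Col4a6, paired head to head with Col4a5 on the X chromosome, was at least 8.14-fold lower in brown adipocytes (adjusted p = 0.00622) and lower in epididymal adipocytes (-3.01 ± 0.87, adjusted p = 0.0213).

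In inguinal fat the Col4a6 difference was -2.89 ± 0.87 (adjusted p = 0.0399), but the library labelled inguinal SVF replicate 1 stood at 2.19 against -1.60 and -2.92 on the other SVF arrays, and without it the value was -1.41 (adjusted p = 0.0737). Col8a2, a short-chain network collagen, showed the same spread, with 1.11 in that library and -3.98 and -5.00 in the others. Both genes were also high in epididymal SVF. The mesothelial sum was 11.4 to 68.1 in epididymal SVF and 12.8 to 24.1 in epididymal adipocytes, the groups where all 7 of its markers were well above background on every array, and at most 1.03 on all brown and all other inguinal arrays. The part of mesothelial cells in these levels was not tested. Col4a4 had -0.89 ± 0.34 (adjusted p = 0.0756) in brown fat by its brightest probe and was not called between fractions.

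The multiplexins Col15a1 and Col18a1, collagens of the basement membrane zone whose end fragments are known as restin and endostatin, were called lower in adipocytes in brown fat. Over all genes, 8.35 percent were lower there. Col15a1 stood at 1.65, 1.42 and 2.01 in brown SVF against -1.31, -0.71 and -1.16 in brown adipocytes, 0.97, 2.24 and 0.51 against 1.32, 0.87 and 1.28 in inguinal fat, and 2.16, 2.04 and 2.77 against 1.42, 1.40 and 1.61 in epididymal fat. Its brown adipocyte arrays were below all 15 others, by -2.75 ± 0.37 (adjusted p = 0.000245) against brown SVF, while inguinal (-0.08 ± 0.37, adjusted p = 0.9) and epididymal fat (-0.85 ± 0.37, adjusted p = 0.103) did not pass. Col18a1 stood at 3.43, 3.05 and 3.52 in brown SVF against 1.30, 1.25 and 1.21 in brown adipocytes, 3.79, 3.37 and 2.60 against 3.62, 3.26 and 3.51 in inguinal fat, and 3.49, 3.77 and 4.60 against 3.97, 4.03 and 4.35 in epididymal fat. The brown adipocyte arrays of Col18a1 lay within 0.10 of each other and below all others. The difference was -2.08 ± 0.32 (adjusted p = 0.000456) in brown, 0.21 ± 0.32 (adjusted p = 0.687) in inguinal fat and 0.16 ± 0.32 (adjusted p = 0.745) in epididymal fat.

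Of the short-chain network genes, Col8a1, known from vessel walls, was lower in brown adipocytes (-2.14 ± 0.35, adjusted p = 0.000761). Col8a1 stood at 4.68, 4.01 and 4.46 in brown SVF against 1.74, 2.65 and 2.35 in brown adipocytes, 3.44, 3.23 and 2.49 against 2.80, 2.12 and 2.86 in inguinal fat, and 3.21, 3.52 and 3.89 against 2.41, 2.69 and 3.40 in epididymal fat. Its inguinal and epididymal fractions overlapped. Of the 4 membrane-spanning genes, Col17a1, a hemidesmosome collagen, was at least 2.35-fold lower in brown adipocytes (adjusted p = 0.0191) and lower in epididymal adipocytes (-1.89 ± 0.65, adjusted p = 0.0468). Col17a1 stood at -2.71, -2.32 and -3.40 in brown SVF against -3.89, -5.17 and -6.35 in brown adipocytes, -3.36, -2.81 and -2.26 against -3.61, -3.71 and -6.0 in inguinal fat, and -2.03, -2.22 and -2.56 against -3.76, -4.97 and -3.73 in epididymal fat. None of the brown adipocyte arrays measured it, and with unmeasured signals raised to the floor of their array Col17a1 in brown fat (-1.24, adjusted p = 0.101) no longer passed. Col25a1 stood at -5.11, -4.72 and -5.42 in brown SVF against -4.82, -4.43 and -4.75 in brown adipocytes, -3.62, -5.16 and -5.21 against -4.92, -4.85 and -3.98 in inguinal fat, and -3.93, -5.97 and -5.10 against -1.46, -4.11 and -2.25 in epididymal fat. Col25a1 was called higher in epididymal adipocytes (2.39 ± 0.63, adjusted p = 0.0132) although an adipocyte array (-4.11) fell among the SVF arrays. Col13a1 and Col23a1 were not called between fractions. Col7a1, the anchoring fibril collagen of skin, was higher in brown adipocytes (1.56 ± 0.46, adjusted p = 0.0243). Col7a1 stood at -1.30, -0.67 and -0.64 in brown SVF against 0.39, 0.53 and 1.14 in brown adipocytes, -0.65, -1.53 and -0.23 against -0.46, -0.79 and 0.96 in inguinal fat, and -0.63, -1.0 and 0.18 against -1.76, -1.49 and -1.17 in epididymal fat. Its other depots were not called, nor was Col28a1 between fractions.

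Of the 40 members, Col9a1 and Col10a1 had no probe well above background on all 3 arrays of a group. Col9a1 was measured on 1 or 2 arrays of each group, and Col10a1 on 1 brown SVF and 1 epididymal adipocyte array. Neither was tested.

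Between depots, more collagen genes were called in adipocytes than in SVF, and the same held over all genes tested. Against inguinal adipocytes, brown adipocytes had 11 of 38 collagen genes lower and 1 higher (background 5.83 and 6.32 percent), with a median of -0.89 against 0.15 over all genes and -0.13 with unmeasured members at their bound. Against epididymal adipocytes they had 23 lower and 4 higher (background 16.5 and 12.3 percent), with a median of -1.80 against -0.01, or -1.26 at the bound. The brown adipocyte arrays enter both comparisons. Inguinal against epididymal adipocytes gave 2 lower (background 6.88 percent), Col9a3 (-2.86 ± 0.54, adjusted p = 0.0102) and Col19a1 (-2.60 ± 0.45, adjusted p = 0.00765), with 13 members at an unadjusted p under 0.05. That count was 1 without inguinal adipocyte replicate 1, 4 without inguinal adipocyte replicate 3, 0 without epididymal adipocyte replicate 1 and 5 without epididymal adipocyte replicate 2. With quantile normalization 4 genes were higher and 2 lower. Progenitor and fibroblast markers were lower in brown than in inguinal (5 of 8 called) and epididymal adipocytes (6 of 8), macrophage markers likewise (5 of 6 each), and mural and smooth muscle markers too (4 and 5 of 7, with 1 higher against epididymal adipocytes). The summed mural level was 34.2 to 46.2 in brown, 91.5 to 133 in inguinal and 66.9 to 169.5 in epididymal adipocytes. The summed macrophage level was 0.99 to 3.30 in brown, 5.38 to 36.6 in inguinal and 9.67 to 23.7 in epididymal adipocytes. The part of those cells in the collagen differences was not tested. For brown against the other adipocytes, software, slide and depot cannot be told apart. Inguinal and epididymal adipocytes were read with the same software, but their slides and scan days cannot be told apart from depot.

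**Figure D4:**
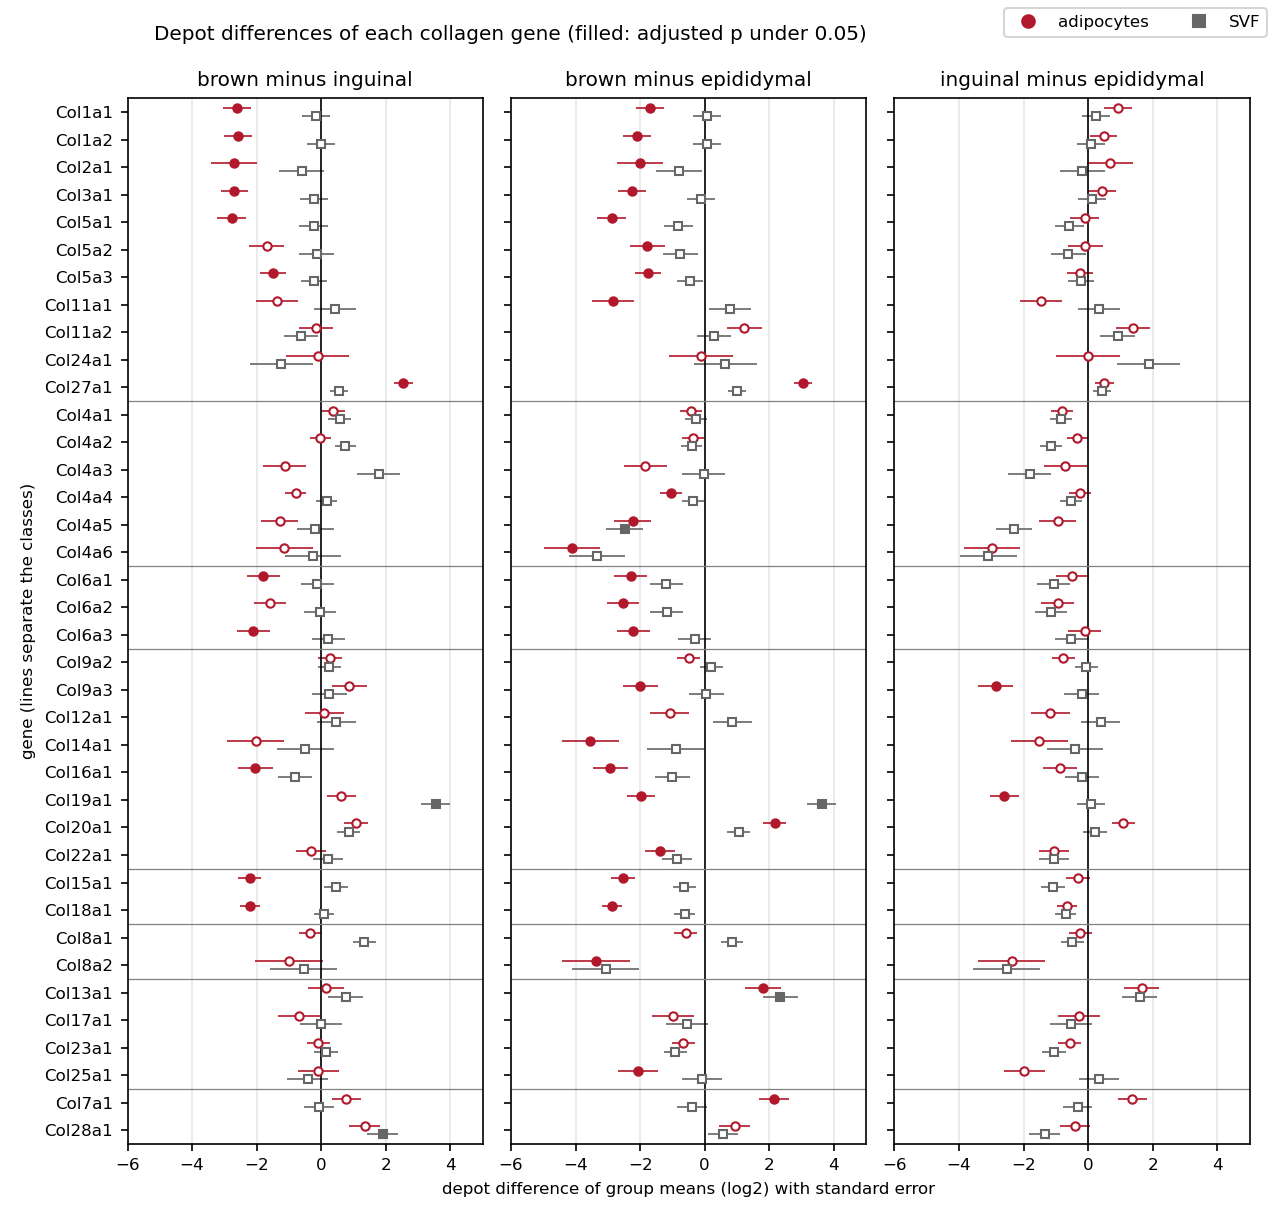
Difference between depots (x axis, log2, with standard error) of 38 collagen genes (y axis, lines separate classes) for adipocytes (red circles) and SVF (grey squares); filled points have an adjusted p under 0.05. The adipocyte points of brown fat lie left of 0 for most fibrillar, type VI and multiplexin genes, with 12 and 27 points filled, while 2, 3 and 0 SVF points are filled.

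Fibrillar, type VI and multiplexin genes made up most of those lower in brown than in inguinal adipocytes. Against inguinal adipocytes the values were -2.78 ± 0.45 (adjusted p = 0.00188) for Col5a1, -2.69 ± 0.43 (adjusted p = 0.0019) for Col3a1, -2.60 ± 0.44 (adjusted p = 0.00239) for Col1a1 and -2.58 ± 0.43 (adjusted p = 0.00222) for Col1a2. Col2a1 (-2.70), Col15a1 (-2.22), Col18a1 (-2.21), Col6a3 (-2.10), Col16a1 (-2.04), Col6a1 (-1.80) and Col5a3 (-1.50) were lower too, without overlap between the arrays. By their second probes Col1a2 (1.16) and Col15a1 (0.11) were not called and had the opposite sign. Col27a1 was the gene higher in brown adipocytes (2.55 ± 0.28, adjusted p = 0.00032). Of these 12 calls, 7 held whichever array was left out: Col1a1, Col1a2, Col3a1, Col5a1, Col15a1, Col18a1 and Col27a1. The count was 7 without brown adipocyte replicate 1, inguinal adipocyte replicate 1 or inguinal adipocyte replicate 2, and 19 without inguinal adipocyte replicate 3.

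Against epididymal adipocytes, Col14a1 (-3.54 ± 0.88, adjusted p = 0.00902), Col16a1 (-2.92 ± 0.53, adjusted p = 0.00168), Col5a1 (-2.88 ± 0.45, adjusted p = 0.000576) and Col18a1 (-2.86 ± 0.32, adjusted p = 7.29e-05) were lower. So were Col15a1 (-2.54), Col6a2 (-2.53), Col6a1 (-2.28), Col3a1 (-2.25), Col6a3 (-2.21), Col1a2 (-2.10), Col2a1 (-2.01), Col9a3 (-1.99), Col5a2 (-1.77), Col5a3 (-1.75), Col1a1 (-1.69) and Col4a4 (-1.04), without overlap, and Col22a1 (-1.38) was called with overlap. Unmeasured on all brown adipocyte arrays, Col4a6 was at least 10.2-fold, Col11a1 3.83-fold, Col8a2 3.11-fold, Col25a1 2.71-fold, Col19a1 1.74-fold and Col4a5 1.26-fold lower (adjusted p from 0.00396 to 0.0268). With unmeasured signals raised to the floor of their array, an alternative added after the data were seen, Col4a6 (-3.34) and Col11a1 (-1.94) passed, and Col8a2 (-1.64), Col25a1 (-1.44), Col19a1 (-0.80) and Col4a5 (-0.33) did not. Col27a1 (3.06 ± 0.28, adjusted p = 2.42e-05), Col20a1 (2.17 ± 0.37, adjusted p = 0.00105), Col7a1 (2.15 ± 0.46, adjusted p = 0.0039) and Col13a1 (1.81 ± 0.55, adjusted p = 0.0249) were higher in brown adipocytes. Of the 27 calls, 18 held whichever array was left out, and the count stayed between 19 and 24. With normexp background correction 17 were called.

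In the SVF few collagen genes differed between depots. Brown against inguinal SVF gave 2 higher (background 1.9 percent), Col19a1 (3.54 ± 0.45, adjusted p = 0.000839) and Col28a1 (1.91 ± 0.48, adjusted p = 0.0497). Brown against epididymal SVF gave 2 higher and 1 lower (background 1.06 and 0.723 percent): Col19a1 (3.63 ± 0.45, adjusted p = 0.000643), Col13a1 (2.35 ± 0.55, adjusted p = 0.0425) and, lower, Col4a5 (-2.48 ± 0.57, adjusted p = 0.0367). The 3 brown SVF arrays of Col19a1 stood at -1.99, -2.10 and -1.68, above all 6 other SVF arrays. Only Col19a1 kept its calls whichever array was left out: against inguinal SVF it was the only call without brown SVF replicate 1 or 3 or without inguinal SVF replicate 1 or 3, and against epididymal SVF without brown SVF replicate 1 or 2 or epididymal SVF replicate 2 or 3. Without the library labelled inguinal SVF replicate 1, Col19a1 had 3.12 (adjusted p = 0.0031) and Col28a1 2.09 (adjusted p = 0.0525). Replicates 1 and 2 of brown SVF lay on another slide than those of inguinal and epididymal SVF. Replicate 3 of each SVF group shared 1 slide, so slide and depot are told apart only in part. With the slide as a block, the Col19a1 call against inguinal SVF was kept (3.89), and 0 of 3 calls against epididymal SVF passed, although the Col19a1 value there was 3.98. Inguinal against epididymal SVF gave 0 calls by limma (background 0.297 percent) with 13 members at an unadjusted p under 0.05, 1 call with array weights, and 3 without the library labelled inguinal SVF replicate 1 or without inguinal SVF replicate 2. No difference of Col1a1 or Col1a2 between SVF groups passed: their 6 differences lay between -0.16 and 0.23, with standard errors of 0.43 to 0.44.

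The fraction difference itself was tested between depots. Between brown and inguinal fat it differed for 4 of 38 genes (background 0.859 percent), Col15a1 (-2.67 ± 0.52, adjusted p = 0.0221), Col18a1 (-2.29 ± 0.45, adjusted p = 0.0229), Col19a1 (-2.92 ± 0.63, adjusted p = 0.0451) and Col27a1 (1.99 ± 0.40, adjusted p = 0.0278). By single probes, each of the 4 had 1 called probe, and the others did not pass, with -0.61 for Col15a1, -1.77 for Col18a1, -2.66 for Col19a1 and 1.84 and 2.40 for Col27a1. Between brown and epididymal fat it differed for 3 (background 2.02 percent), Col18a1 (-2.24 ± 0.45, adjusted p = 0.0178), Col19a1 (-5.60 ± 0.63, adjusted p = 0.000489) and Col27a1 (2.06 ± 0.40, adjusted p = 0.0154). No brown adipocyte array measured Col19a1 by its brightest probe, so its values here depend on signals below background. Between inguinal and epididymal fat limma called 0 (background 0.0781 percent), with 4 members at an unadjusted p under 0.05. For Col1a1 and Col1a2, whose fitted fraction difference was furthest from 0 in brown fat, the test of that difference did not pass against inguinal fat, with -2.45 ± 0.62 (adjusted p = 0.0849) and -2.56 ± 0.61 (adjusted p = 0.0634). None of the 4 calls against inguinal fat held whichever array was left out: 0 remained without brown SVF replicate 1, brown SVF replicate 3, brown adipocyte replicate 1 or inguinal adipocyte replicate 1. There were 2 calls without brown SVF replicate 2, brown adipocyte replicate 2 or brown adipocyte replicate 3, and 8 without inguinal SVF replicate 2. Without the library labelled inguinal SVF replicate 1, Col15a1 (-2.53), Col18a1 (-2.56) and Col27a1 (2.14) passed and Col19a1 (-2.50, adjusted p = 0.0664) did not. Against epididymal fat Col19a1 and Col27a1 held whichever array was left out, and 6 genes were called without epididymal adipocyte replicate 2.

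Probes of the same gene did not always agree. Of the 38 genes, 24 have at least 2 probes that passed the filter; their signs were opposite for 4 genes in the brown, 7 in the inguinal and 9 in the epididymal fraction comparison. Col4a6 and Col19a1 are given probe by probe, and Col2a1 was singled out after its values were seen, as the gene with calls in opposite directions. Probe positions are from the files (mm8), and p-values are adjusted over all 28595 probes.

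Col4a6 has 3 probes on the minus strand of the X chromosome. The first 30 of each probe's 60 bases are shown to identify them, in the order of the transcript.
Col4a6 A_52_P447196, chrX:136413257-136413316 (- strand): cagtccctaatctcccctggctcgtgtctt
Col4a6 A_51_P109326, chrX:136412641-136412700 (- strand): aggatttccaccctaaaaatacgtttctgg
Col4a6 A_52_P516409, chrX:136411815-136411874 (- strand): ggcaaagcataacaagtacattctgagctc
The values above are those of the last probe, the brightest. The middle probe read -5.14, -5.45 and -4.72 in brown SVF against -5.53, -6.20 and -6.18 in brown adipocytes, -2.61, -5.08 and -7.15 against -6.40, -7.64 and -7.57 in inguinal fat, and -1.57, -1.66 and -1.62 against -4.49, -4.76 and -5.51 in epididymal fat. It was lower in epididymal adipocytes as well (-3.30 ± 0.76, adjusted p = 0.00724), while no inguinal or brown adipocyte array measured it. The first probe read -2.50, -2.86 and -2.59 in brown SVF against -2.12, -2.25 and -1.93 in brown adipocytes, -2.0, -2.60 and -2.54 against -2.04, -2.23 and -1.33 in inguinal fat, and -1.76, -2.08 and -1.81 against -1.19, -1.99 and -0.77 in epididymal fat. It was measured on all 18 arrays and gave 0.55 ± 0.31 (adjusted p = 0.264) in brown, 0.51 ± 0.31 (adjusted p = 0.287) in inguinal fat and 0.57 ± 0.31 (adjusted p = 0.21) in epididymal fat, with the opposite sign and no call. Col4a6 was thus called lower in epididymal adipocytes by the middle and the last probe and not by the first.

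Col19a1, a rare fibril-associated collagen, has 4 probes on chromosome 1, minus strand, of which the second and the last in transcript order passed the filter.
Col19a1 A_52_P201833, chr1:24413920-24413979 (- strand): aaccatctacatgtcaactagggaaatagt
Col19a1 A_51_P146726, chr1:24218751-24218810 (- strand): tgagtcctattctgacagtaagagcagatc
Col19a1 A_52_P220271, chr1:24217054-24217113 (- strand): tgtttgcttatgtatcttcatagccaactg
Col19a1 A_51_P213676, chr1:24213086-24213145 (- strand): tgctacagttcttcagatagcattctaaat
Probe A_51_P146726, the brightest, read -1.99, -2.10 and -1.68 in brown SVF against -5.62, -5.08 and -4.96 in brown adipocytes, -6.31, -5.08 and -5.01 against -6.38, -5.56 and -5.58 in inguinal fat, and -4.62, -5.85 and -6.20 against -2.84, -3.94 and -2.96 in epididymal fat. It was measured on every brown SVF and epididymal adipocyte array, on 2 inguinal SVF, 1 inguinal adipocyte and 1 epididymal SVF array, and on no brown adipocyte array. As the value of the gene, it was at least 4.36-fold lower in brown adipocytes than in brown SVF (adjusted p = 0.000271) and higher in epididymal adipocytes than in epididymal SVF (2.31 ± 0.45, adjusted p = 0.00302). With unmeasured signals raised to the floor of their array the brown and epididymal differences were -2.12 and 2.02, and the difference of the fraction differences was -4.15 (adjusted p = 0.00173) against epididymal and -1.65 (adjusted p = 0.147) against inguinal fat.

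Probe A_51_P213676 read -5.23, -5.41 and -5.32 in brown SVF against -5.79, -6.62 and -6.60 in brown adipocytes, -6.46, -7.91 and -7.56 against -6.89, -4.25 and -5.87 in inguinal fat, and -7.89, -8.03 and -7.75 against -7.22, -7.71 and -6.45 in epididymal fat. It was measured on the 3 brown SVF arrays and 1 inguinal adipocyte array alone. It was at least 1.23-fold higher in brown than in epididymal SVF (adjusted p = 0.0224). It passed the filter only through brown SVF, so this is no independent support for the other probe. Between inguinal and epididymal adipocytes it had 1.46, where probe A_51_P146726 had -2.60, with 1 array of the 6 measured. By group mean brown SVF was highest for both probes, but inguinal adipocyte replicate 2 of A_51_P213676 (-4.25) stood above its brown SVF arrays. A_51_P146726 alone measured Col19a1 on more than 1 epididymal adipocyte array. Of the other probes, A_52_P201833 was measured on 1 array and A_52_P220271 on 2.

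Col2a1 has a pair of probes that share 40 of their 60 bases. They are shown with the 20 bases that differ in capitals.
Col2a1 A_52_P216436, chr15:97804108-97804167 (- strand): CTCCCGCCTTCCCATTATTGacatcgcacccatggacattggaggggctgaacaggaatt
Col2a1 A_51_P317141, chr15:97804088-97804147 (- strand): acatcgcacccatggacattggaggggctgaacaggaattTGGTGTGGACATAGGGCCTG
Probe A_51_P317141 gave the values above, with -2.52 ± 0.70 (adjusted p = 0.0198) in epididymal fat. Probe A_52_P216436 read -2.95, -2.83 and -3.09 in brown SVF against -2.47, -2.59 and -2.63 in brown adipocytes, -2.20, -2.90 and -3.20 against -1.62, -2.61 and -1.86 in inguinal fat, and -2.41, -2.82 and -2.91 against -0.66, -2.48 and -0.70 in epididymal fat. It was higher in epididymal adipocytes (1.43 ± 0.42, adjusted p = 0.0247) and had 0.39 ± 0.42 (adjusted p = 0.585) in brown fat, where the other probe was lower (-3.74 ± 0.70, adjusted p = 0.00203). Both were measured on all 18 arrays. The direction of Col2a1 between fractions therefore depends on the probe.

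**Figure D5:**
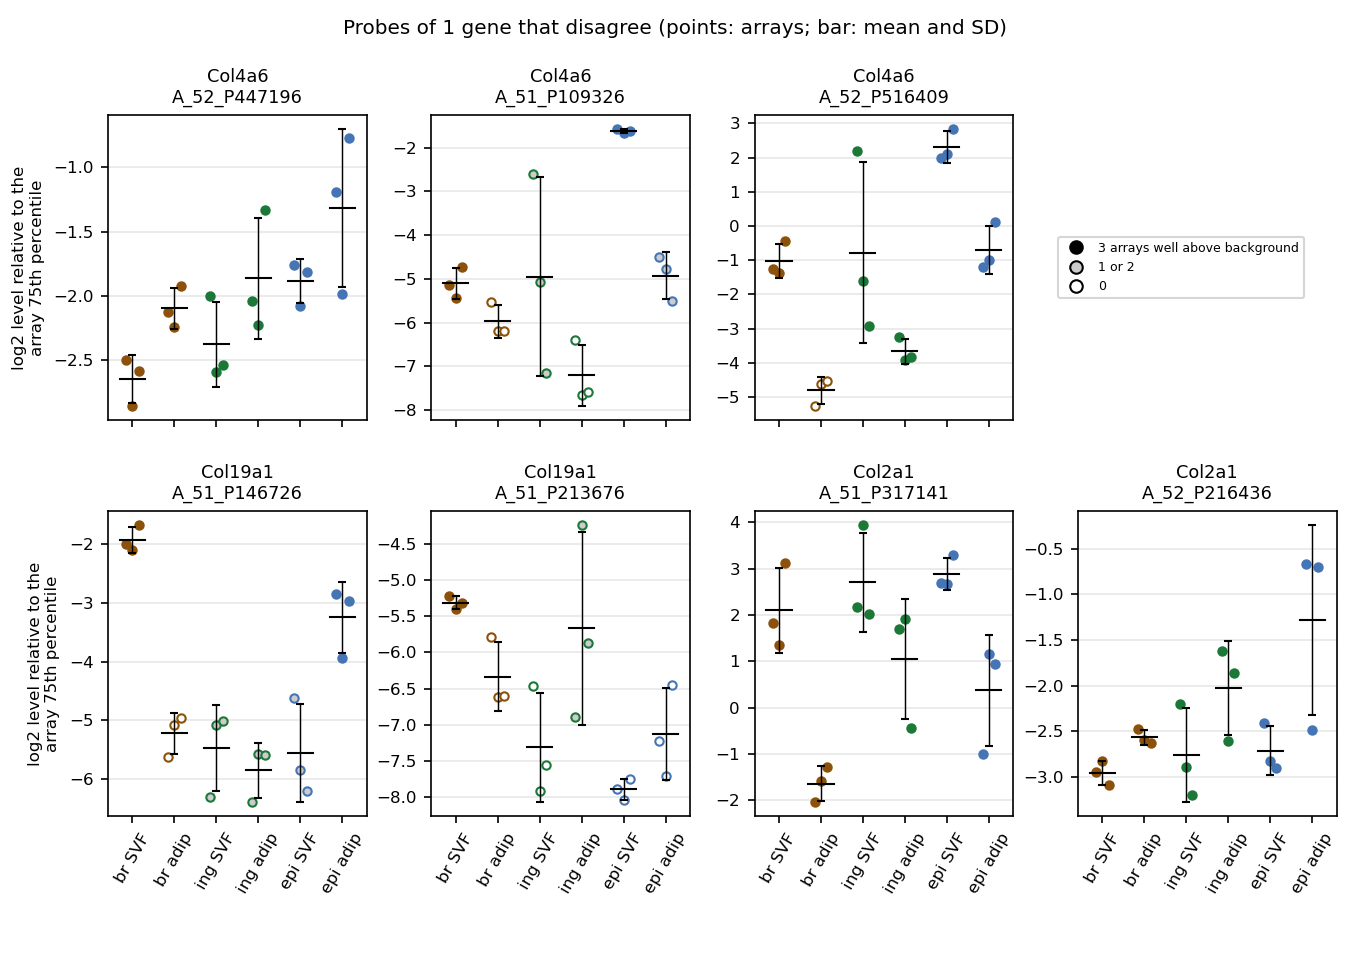
Log2 level relative to the array's 75th percentile (y axes, a separate scale in each panel) of single probes of Col4a6, Col19a1 and Col2a1 in the 6 groups (x axis); points are arrays, the bar the mean with its SD, and fill shows how many arrays of the group were well above background. For Col4a6, A_52_P516409 and A_51_P109326 fall from epididymal SVF to adipocytes and A_52_P447196 does not, and the Col2a1 probes go opposite ways there.

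Other genes agreed better, in part. All 3 probes of Col1a1 were called lower in adipocytes in every depot (-2.53 to -1.50 in inguinal and -2.86 to -1.97 in epididymal fat, and -4.67 and -3.95 in brown fat by the probes measured in brown adipocytes), and both probes of Col3a1, Col6a2, Col6a3, Col8a1, Col15a1 and Col18a1 were called lower in brown adipocytes. In the other depots the probes of Col3a1, Col15a1, Col6a2 and Col6a3 did not all give the same call. In epididymal fat 1 of the 2 probes was called lower for Col6a2 (-1.75 and -0.74). The same held there for Col6a3, with like values (-1.36 and -1.31). The second probe of Col3a1, measured on all arrays but those of brown adipocytes, was called lower in adipocytes of inguinal fat (-2.42 ± 0.51, adjusted p = 0.00676) and of epididymal fat (-1.79 ± 0.51, adjusted p = 0.0209), without overlap. The second probe of Col15a1 was called lower in inguinal adipocytes with overlap (-1.91 ± 0.55, adjusted p = 0.0326), measured on 1 array of each inguinal fraction, and it had 0.11 between brown and inguinal adipocytes. Single probes were not fitted without the library labelled inguinal SVF replicate 1. For Col4a4 the brightest probe gave -0.89 in brown fat with no call, and the other probe was at least 13.6-fold lower (adjusted p = 5.95e-05) on arrays where it was unmeasured in brown adipocytes. In epididymal fat 1 of the 2 probes of Col4a4 was called lower in adipocytes (-1.71 and -0.22). For Col1a2 the other probe was dim, with -0.98 in brown fat and no call.

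Genes that make, trim and bind collagen were followed by lists chosen by function. Of 30 genes of collagen synthesis and processing tested (of 32 listed), 13 were lower in brown adipocytes than in brown SVF (8.35 percent of all genes were), with a median of -1.02. Among them were the procollagen enhancers Pcolce2 (-5.08) and Pcolce (-3.12) and the cross-linking oxidases Loxl1 (-3.71) and Loxl2 (-2.85). In inguinal fat 8 were lower and 1 higher (4.81 and 9.16 percent of all genes; median -0.62), with Pcolce2 at -2.63, Loxl1 at -2.25, Loxl2 at -2.12 and Tmem38b, an ion channel needed for collagen export, at 2.39. Without the library labelled inguinal SVF replicate 1, 2 were lower and 1 higher (3.15 and 7.47 percent of all genes; median -0.53): Loxl1 (-2.16, adjusted p = 0.0403), the procollagen protease Bmp1 (-1.85, adjusted p = 0.0385) and Tmem38b (2.56, adjusted p = 0.0217) passed, and Pcolce2 (-2.82, adjusted p = 0.0555) and Loxl2 (-2.09, adjusted p = 0.0839) did not. In epididymal fat 12 were lower and 1 higher (6.91 and 18.1 percent of all genes; median -1.08), with Loxl1 at -2.61, Pcolce2 at -2.56, the prolyl 3-hydroxylase P3h3 at -2.38 and the procollagen protease Adamts14 at 2.20. Between adipocytes, 7 were lower and 1 higher in brown than in inguinal (5.83 and 6.32 percent of all genes) and 11 lower and 1 higher in brown than in epididymal fat (16.5 and 12.3 percent), among them Lox (-2.42 and -3.17), which cross-links collagen, and the procollagen protease Adamts2 (-1.95 and -2.29).

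Of 9 collagen receptors and uptake genes tested (of 10 listed), 4 were lower in brown adipocytes, against 8.35 percent of all genes: the integrin chain Itga11 (-5.18), the inhibitory receptor of immune cells Lair1 (-4.02), the uptake receptor Mrc2 (-2.64) and the collagen-binding kinase Ddr2 (-2.12). In inguinal fat 1 was lower, Itga11 (-2.12), and 1 was called higher, the platelet receptor Gp6, measured on 2 inguinal adipocyte arrays and no inguinal SVF array (4.81 percent of all genes were lower and 9.16 percent higher). Without the library labelled inguinal SVF replicate 1, Itga11 had -2.33 (adjusted p = 0.0613) and Gp6 was still called (adjusted p = 0.00613). In epididymal fat, where 6.91 percent of all genes were lower and 18.1 percent higher, 3 were lower, Itga11 (-2.63), Mrc2 (-1.99) and Ddr2 (-1.71), and Gp6 was called higher (2.26). Gp6 was measured there on 3 adipocyte arrays and 1 SVF array, so its value depends on signals below background. Lair1, measured on 1 of 3 brown adipocyte arrays, moved beside the macrophage markers, which were lower in brown adipocytes (5 of 6 called; summed level 0.99 to 3.30 against 15.3 to 28.8 in brown SVF); their part in it was not tested.

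Of 15 other basement membrane genes tested (of 16 listed), 7 were lower in brown adipocytes (8.35 percent of all genes; median -0.75), among them the laminin chains Lama2 (-3.91) and Lamc1 (-1.19) and the linkers Nid1 (-1.88) and Nid2 (-1.79). In inguinal fat 1 of the 15 was lower, a share of 6.67 percent near the 4.81 percent of all genes: Lama2 (-1.62; list median -0.48), which had -1.81 (adjusted p = 0.0496) without the library labelled inguinal SVF replicate 1. In epididymal fat 5 were lower and 1 higher (6.91 and 18.1 percent of all genes; median -0.44), with Lama2 at -2.77, Nid2 at -1.43, Lamc1 at -1.27 and Lamc3 at 1.40. Agrn, a heparan sulfate proteoglycan of basement membranes, was higher in brown than in epididymal adipocytes (1.36).

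Other cell types the fractions could hold were followed by their markers, as summed levels. Endothelial markers overlapped between the fractions of every depot (87.9 to 138 in brown adipocytes against 102 to 216 in brown SVF, 53.3 to 56.7 against 35.7 to 85.6 in inguinal and 72.2 to 79.3 against 52.5 to 112 in epididymal fat). Col4a1 overlapped between fractions in brown and inguinal fat and lay apart in epididymal fat. Mural and smooth muscle markers were 228 to 290 in brown SVF and 34.2 to 46.2 in brown adipocytes. They were 33.7 to 80.5 in inguinal SVF, below the 91.5 to 133 of inguinal adipocytes, and 56.2 to 71.3 in epididymal SVF against 66.9 to 169.5 in epididymal adipocytes. Skeletal muscle markers were 9.19 to 19.0 in epididymal adipocytes and 0.37 to 0.47 in epididymal SVF, without overlap. Of these markers 1 of 5 was called there, near the share of all genes (18.1 percent higher and 6.91 percent lower). The skeletal muscle sum reached 22.9 in inguinal SVF replicate 2. T and B cell markers reached 56.8 in inguinal SVF replicate 3 and 15.1 in inguinal adipocyte replicate 1. The part of these cells in the collagen levels was not tested.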

How the data were processed

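RNA of 18 samples (6 groups of 3) was hybridised to one-colour Agilent arrays. The deposited scanner files hold Cy3 intensity per spot, already background-corrected by the authors' Feature Extraction software (10.5.1.1 on 12 arrays, 9.5.3.1 on 6), per the file headers. The deposited matrix of log2 values, whose scaling is not given in the sources used here, served as an alternative. Control and outlier-flagged spots were left out, each array was divided by its 75th percentile before log2, and a probe was kept if well above background on all 3 arrays of a group. No member spot was saturated. A gene's value is its brightest kept probe. Groups were compared with limma 3.58.1 (R 4.3.3), 1 fit over all arrays and 12 contrasts, tested on simulated data. Genes given on every array follow a rule of up to 5 members per class, plus called members. Members, gene lists, marker lists and tests were chosen with earlier results of these data known. The labels name biological triplicates but not their animals, so p-values measure the spread between these samples. The number of arrays limits the precision. Between the fractions of a depot, samples of like replicate number had positive correlations of deviations throughout in epididymal fat alone (0.424, 0.483 and 0.138). This is a hint of pairing and no more. Brown adipocytes with epididymal SVF, from different depots, gave 0.159, 0.1735 and 0.513. Collagens under other array names (Emid2, 1110001D15Rik and E330026B02Rik, now Col26a1, Col6a4 and Col6a6) are not members. One marker list is not reported here.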

Additional observations from a re-analysis of the deposited data

Results flagged for a closer look

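The difference between adipocytes and SVF itself differed between depots for 4 genes in limma's test of that difference (adjusted over 19217 genes). Between brown and inguinal fat the values were -2.67 ± 0.52 for Col15a1 (SE, adjusted p = 0.0221), -2.29 ± 0.45 for Col18a1 (adjusted p = 0.0229), -2.92 ± 0.63 for Col19a1 (adjusted p = 0.0451) and 1.99 ± 0.40 for Col27a1 (adjusted p = 0.0278). The second probe of Col15a1 gave -0.61 there and was not called. Between brown and epididymal fat they were -2.24 ± 0.45 for Col18a1 (adjusted p = 0.0178), -5.60 ± 0.63 for Col19a1 (adjusted p = 0.000489) and 2.06 ± 0.40 for Col27a1 (adjusted p = 0.0154). No brown adipocyte array measured Col19a1 by its brightest probe, so its values depend on signals below background. With those raised to the floor of their array, Col19a1 passed against epididymal fat and not against inguinal fat. None of the 4 calls against inguinal fat held whichever array was left out. Against epididymal fat Col19a1 and Col27a1 held, and Col18a1 did not. Col18a1 was lower in brown adipocytes than in brown SVF, and its fractions overlapped in the other depots. Col27a1 had the opposite pattern, higher in brown adipocytes. The software of the inguinal and epididymal adipocyte arrays cannot be told apart from depot in these values.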

How the results depend on the processing

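Of 99 called gene differences, 39 kept their call under every alternative they were given; of 2197 alternative values 1861 kept direction and call, 333 kept direction only and 3 reversed. The reversed ones are Col4a6 with only probes well above background on all 18 arrays, where another of its probes is used (0.55, 0.51 and 0.57 in the brown, inguinal and epididymal fraction comparisons). Col4a2, not called in inguinal fat, turned to -0.19 with quantile normalization, -0.057 with normexp, -0.28 with the deposited matrix, -0.31 with array weights, and ranged from -0.165 (without inguinal adipocyte replicate 3) to 0.35 (without inguinal SVF replicate 2) with 1 array left out, below 0 also without inguinal SVF replicate 3 (-0.082). The cause was not tested. Scaling moved the median of all genes by over 0.1 in several comparisons, among them the brown fractions (0.15 to -0.03 with quantile normalization, 0.36 with normexp and -0.02 with the matrix), the epididymal fractions (0.07 to -0.12, 0.17 and -0.10) and brown against epididymal adipocytes (-0.01 to 0.16 with normexp). Planned normexp on the mean signal was not run, since 6 of 18 files hold that column. The median signal was used, with its local background limited to 2 times the array's median; this, the raised floor, a block over 6 arrays and the pathway lists without the library labelled inguinal SVF replicate 1 were added after the data were seen.

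Counts of called collagen genes moved by over 1.5 times under these settings, and the cause was not tested. Between the brown fractions (23) each probe on its own gave 36. Between the inguinal fractions (6) no filter gave 2, each probe 11, only the arrays compared 0, a random block for slides or for scan days 3 each, and leaving out both libraries that stood apart (epididymal adipocyte replicate 3 and the one labelled inguinal SVF replicate 1) 1. Between the epididymal fractions (17) only probes measured on all 18 arrays gave 10. For brown against inguinal adipocytes (12) each probe gave 19 and array weights 22; for brown against epididymal adipocytes (27) normexp gave 17. For inguinal against epididymal adipocytes (2) quantile normalization gave 6, normexp 0, the matrix 4, probes on all 18 arrays 0, array weights 11 and leaving out those 2 libraries 4. For brown against inguinal SVF (2) normexp, no filter, probes on all 18 arrays, fixed blocks for slides or for scan days and array weights gave 1 each, and only the arrays compared or 1 scan day 0. For brown against epididymal SVF (3) quantile normalization, no filter, scan day as a fixed block, slide as a random block and 1 scan day gave 1 each, probes on all 18 arrays and slide as a fixed block 0, each probe, only the arrays compared and leaving out those 2 libraries 5, and array weights 7. For inguinal against epididymal SVF (0) array weights gave 1 and leaving out those 2 libraries 3. For the test of the brown against the inguinal fraction difference (4) normexp, no filter, the mean of probes and leaving out those 2 libraries gave 2, only the arrays compared 0 and array weights 8. For brown against epididymal (3) quantile normalization and each probe gave 5, only the arrays compared 9 and array weights 23; for inguinal against epididymal (0) array weights gave 1. Splits by direction moved most for the last adipocyte pair (0 higher and 2 lower, 4 and 2 with quantile normalization, 2 and 2 with the matrix), brown against epididymal SVF (2 and 1, 1 and 0 with quantile normalization, 2 and 2 with normexp) and the brown tests of fraction differences (1 and 3 against inguinal fat, 0 and 3 with quantile normalization; 1 and 2 against epididymal fat, 0 and 2 with normexp, 2 and 2 with the matrix).

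With the replicate number as a block, inguinal against epididymal adipocytes gave 5 calls, brown against epididymal SVF 1 and the brown against epididymal fraction difference 5; 4 of 99 gene calls changed. In epididymal fat, where the data only hint that the replicate numbers pair the samples, the block over those 6 arrays kept all 17 calls.

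Leaving out each array in turn gave 20 to 23 calls between the brown, 1 to 8 between the inguinal and 6 to 15 between the epididymal fractions. Adipocyte pairs gave 7 to 19 (brown, inguinal), 19 to 24 (brown, epididymal) and 0 to 5 (inguinal, epididymal); SVF pairs gave 1 to 2, 1 to 2 and 0 to 3 in that order. The tests of fraction differences gave 0 to 8, 2 to 6 and 0 to 3 in that order; the last was 1 without epididymal SVF replicate 1 and 3 without epididymal adipocyte replicate 2. The floor of each array limits what was measured in brown adipocytes.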
